A study of Homo sapiens with 8 samples.

Results

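Cells restrain their own ERK signalling through a group of induced inhibitors, and these are the 10 genes described here: the MAP kinase phosphatase genes DUSP4, DUSP5 and DUSP6, the Sprouty genes SPRY1, SPRY2 and SPRY4, the Sprouty-related genes SPRED1, SPRED2 and SPRED3, and IL17RD, which encodes the receptor-like inhibitor Sef. They were chosen by name, with earlier results of these data known. These symbols were looked up among the 15811 genes of the deposited table, and all 10 were found. Values came from H9, a human embryonic stem cell line, as 4 WT libraries and 4 libraries of an EXT1-/- line derived from H9 by CRISPR/Cas9. EXT1 is an enzyme of heparan sulfate chain synthesis, and the labels state that the knockout cells lack this sugar. All 8 libraries were of cells held for 28 h in RPMI-1640 with 6 µM CHIR-99021, an inhibitor of GSK3 that starts mesendoderm differentiation, so no library of uninduced cells was analysed here. The labels name 1 knockout line and do not say whether it is a clone, nor whether replicates were separate cultures. The p-values therefore rest on differences among these libraries alone, and such differences may be technical.

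Fibroblast growth factors bind their receptors together with heparan sulfate, and the receptor then activates RAS, the RAF and MEK kinases, and ERK. ERK in turn raises transcription of several of its own inhibitors, so that in embryos their transcripts often mark where FGF signals. The inhibitors act at different steps: Sef and the Sprouty proteins near the receptor and RAS, SPRED proteins at RAS through the GTPase activator neurofibromin, and the phosphatases on ERK itself. In pluripotent cells and the primitive streak the FGF and ERK pathway is a main influence on exit from pluripotency and on mesendoderm formation.

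The deposited values are normalised read counts, whole numbers that the authors had already brought to a common scale, and they summed to between 37737058 and 40017763 per library. The EXT1 transcript was lower in the knockout but present: the WT libraries, in the order of their replicate numbers as throughout, had 1776, 1499, 1464 and 1508, and the EXT1-/- libraries 890, 894, 915 and 980. Mitochondrial transcripts took 9.18 to 10.7% of the total in WT replicate 1 and EXT1-/- replicates 1 and 4, and 5.30 to 5.43% elsewhere. Below, the first 3 form the high set and the remaining 5 the low set, a division that the labels do not name. The high set has 1 WT library, so within it a difference has no test. Mesendoderm markers were present in both groups, with TBXT at 6244 to 7319 in WT and 3002 to 4932 in EXT1-/- libraries. Of the 4 mesendoderm markers, 3 were lower (all but GSC), and their summed level was 27021 to 30702 in WT and 9472 to 15005 in EXT1-/-. Of the 4 pluripotency markers POU5F1 and NANOG were lower, SOX2 was higher and LIN28A was not called (sums 131556 to 134594 and 107826 to 120932). All 4 measured markers of neural and neural plate border cells (PAX3, TFAP2A, MSX1 and ZIC1; PAX6, SOX1 and SOX10 are not in the table) were higher, with sums of 586 to 760 in WT and 7384 to 16634 in EXT1-/-. Of the 4 measured amnion and trophectoderm markers TFAP2C and HAND1 were higher, GABRP was lower and KRT7 was not called (sums 305 to 410 and 498 to 637), and HAND1 was at 0, 0, 1 and 1 in WT. The table appears to hold only genes whose second-highest library reached about 0.977 CPM, where a CPM is 38.9 normalised counts. HAND1, and TFAP2A of the neural list, reached that level only in EXT1-/- libraries, and GABRP only in WT libraries. These genes could be in the table only because that group was high, so the direction of their calls is partly fixed by this selection. GATA3 and ISL1 are not in the table, nor is the fibroblast gene COL3A1. The 3 measured fibroblast markers COL1A1, THY1 and PDGFRB were lower (sums 3219 to 4312 and 1860 to 2545). By the rule used for these calls, given below, 16.8% of all genes were lower and 15.2% higher. The part of these markers in the differences below was not tested, and in bulk RNA fewer cells of a type and less RNA per cell cannot be told apart.

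All 10 inhibitors had a lower mean in EXT1-/- than in WT libraries, and 9 fell by limma's test at an adjusted p below 0.05, adjusted over all 15811 genes. Of all genes tested, 16.8% were called lower and 15.2% higher by that rule. At least a 2-fold fall was found for 8 of the 10 members, against 4.28% of all genes. In 9 of 10 members every EXT1-/- value lay below every WT value, which held for 17.2% of all genes. The median log2 fold change was -1.43 over the members and 0.01 over all genes. The members were chosen with earlier results of these data known, so these shares are no test of the group. SPRED2 was the member not called, and it was called within the low set, where 10 of 10 members were lower with a median of -1.41. More genes were called there in general, 24.1% of all genes lower and 20.9% higher. In the authors' deposited table all 10 members were lower at an FDR below 0.05, as were 13.6% of all genes, with DUSP6 at a log2 fold change of -3.83 and SPRED2 at -0.36 (FDR 0.0343). The fall was uneven, from 14.2-fold for DUSP6 to 1.28-fold for SPRED2 as a ratio of group means. Normalised counts summed over the 10 genes were 17724, 20750, 20609 and 22062 in the WT libraries and 6640, 8091, 8278 and 8122 in the EXT1-/- libraries. IL17RD alone gave 7832 to 11557 of the WT sums.

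**Figure D1:**
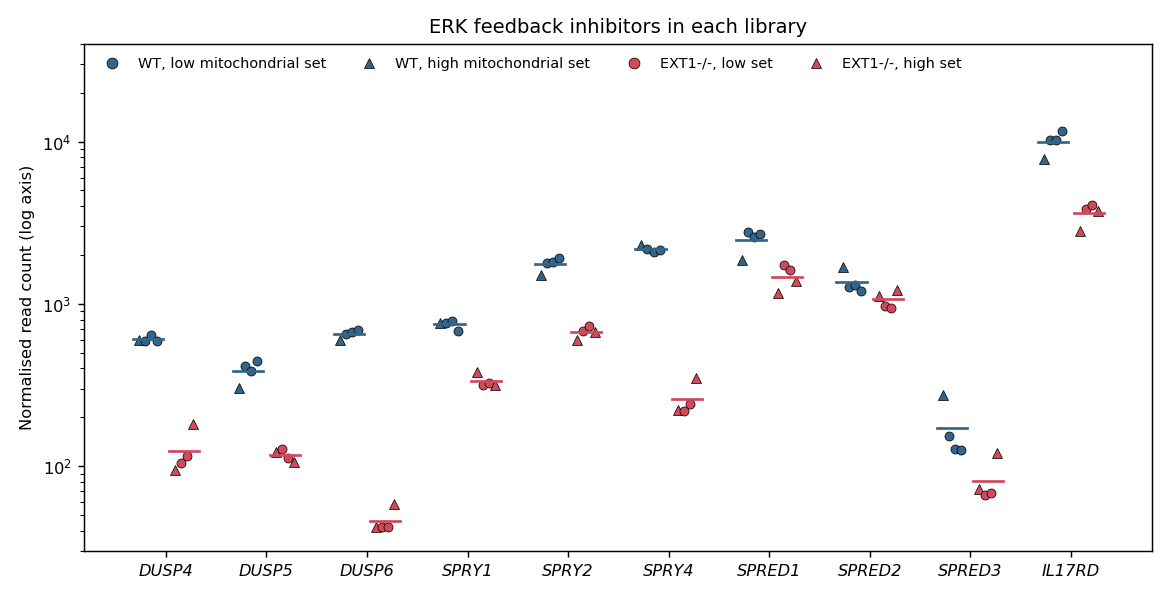
Normalised read count (log axis) of the 10 members in each of the 8 libraries, with WT in blue, EXT1-/- in red, circles for the low and triangles for the high mitochondrial set, and lines for group means. The groups stand apart in every gene but SPRED2, where EXT1-/- replicate 4 at 1223 lies above the lowest WT value of 1202.

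Promoters of the members were read because the genes moved in 1 direction. RefSeq promoter windows (GRCh38.p14, 250 bases before to 50 after a transcription start) were found for 8 of the 10 members, with 14 windows in all, and none for DUSP4 and DUSP5. The windows were searched on both strands for set letters only. These were CCGGAA for ETS factors, TGAATGAA and TCAATGAA for Capicua, TGANTCA for AP-1, CTTTGAT for TCF/LEF and TGACGTCA for the CRE. Other forms of these sites were not searched, so a window without a match may still hold such a site. ETS factors and AP-1 are activated downstream of ERK, Capicua is a repressor that ERK relieves, and TCF/LEF factors are partners of β-catenin. CCGGAA was in 2 of 14 member windows (SPRY1 and SPRY2) and in 17.2% of all 35116 windows. TGAATGAA was in 1 member window, of SPRED3, against 1.65% of all windows, and TCAATGAA was in none (0.718% of all). AP-1 sites were in 1 window each of SPRED2 and SPRED3 (7.71% of all), the TCF/LEF site in 1 of IL17RD (2.62%) and the CRE in none (1.85%). AP-1 and CRE letters read nearly or fully the same on both strands, so a match there was counted once. These are matches of letters, not sites shown to be bound.

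The 250 bases before the RefSeq start are shown 5′ to 3′ for DUSP6 and SPRY4, the members with the largest falls. Their windows held none of the letters searched. Stretches of SPRY2 and SPRED3 are also shown, with matches in capitals. The capitals mark CCGGAA in SPRY2, and in SPRED3 TGAATGAA followed by the AP-1 letters. The windows lie at chr12:89352502-89352751 (minus strand) for DUSP6, chr5:142324248-142324497 (minus strand) for SPRY4, chr13:80341127-80341376 (minus strand) for SPRY2 and chr19:38389541-38389790 (plus strand) for SPRED3. SPRY2 fell 2.63-fold and SPRED3 2.10-fold. Every member had a lower mean, so windows with and without a match cannot be compared by direction. The part of these motifs in the falls was not tested.
DUSP6: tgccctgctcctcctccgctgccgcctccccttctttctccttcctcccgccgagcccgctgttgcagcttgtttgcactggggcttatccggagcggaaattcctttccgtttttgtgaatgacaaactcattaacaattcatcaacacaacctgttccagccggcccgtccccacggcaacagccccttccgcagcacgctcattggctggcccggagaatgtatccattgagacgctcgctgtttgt
SPRY4: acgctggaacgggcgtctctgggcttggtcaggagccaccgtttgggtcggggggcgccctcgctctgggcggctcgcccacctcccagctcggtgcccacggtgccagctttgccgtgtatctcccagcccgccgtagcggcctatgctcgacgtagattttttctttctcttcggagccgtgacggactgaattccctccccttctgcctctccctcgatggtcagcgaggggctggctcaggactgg
SPRY2: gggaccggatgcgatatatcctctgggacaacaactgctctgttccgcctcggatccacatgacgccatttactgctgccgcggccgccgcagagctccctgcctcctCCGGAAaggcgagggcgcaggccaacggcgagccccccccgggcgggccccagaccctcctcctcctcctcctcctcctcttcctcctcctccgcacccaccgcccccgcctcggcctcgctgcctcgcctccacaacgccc
SPRED3: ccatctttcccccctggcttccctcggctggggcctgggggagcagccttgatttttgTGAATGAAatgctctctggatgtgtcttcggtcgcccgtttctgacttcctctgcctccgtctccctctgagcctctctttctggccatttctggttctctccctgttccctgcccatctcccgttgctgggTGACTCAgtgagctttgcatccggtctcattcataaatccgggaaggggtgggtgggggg

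DUSP6 (ENSG00000139318, chromosome 12, 89347232 to 89353271, minus strand, GENCODE 29), the cytoplasmic phosphatase that is specific for ERK, had the largest fall of the 10. WT libraries had normalised counts of 599, 651, 669 and 695, and EXT1-/- libraries of 42, 42, 42 and 58. The WT libraries were within a narrow range and each was over 10 times the highest EXT1-/- library. The knockout level was 7.04% of WT, and the log2 fold change of -3.81 ± 0.12 (SE; adjusted p 3.34e-07, limma) was the 26th lowest fold change of all genes tested. Taken by library set, the log2 fold change of DUSP6 was -3.97 (low) and -3.57 (high). An antisense gene, AC024909.2, shares 1875 exonic bases with DUSP6. The kit kept strand, but whether counting used it is not given in the sources used here, so reads of these genes may not be separated.

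DUSP4 (ENSG00000120875, chromosome 8, 29333064 to 29350668, minus strand) encodes an inducible nuclear phosphatase of ERK and other MAP kinases. It was at 596, 589, 644 and 594 in the WT libraries and 95, 105, 115 and 181 in the EXT1-/- libraries. All WT values lay close together, and EXT1-/- replicate 4 was the highest of the knockout libraries. The log2 fold change was -2.32 ± 0.18 (adjusted p 2.42e-05, limma), or -2.52 without EXT1-/- replicate 4. DUSP5 (ENSG00000138166, chromosome 10, 110497838 to 110511544, plus strand) encodes a nuclear phosphatase that binds and inactivates ERK. It was at 304, 414, 386 and 446 in WT and 123, 127, 112 and 106 in EXT1-/- libraries, a log2 fold change of -1.71 ± 0.13 (adjusted p 1.98e-05, limma). WT replicate 1, of the high set, was its lowest WT library, and DUSP5 differed by -1.79 within the low and -1.40 within the high set, as log2 fold changes.

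SPRY4 (ENSG00000187678, chromosome 5, 142310427 to 142326455, minus strand), a Sprouty protein that acts between receptor tyrosine kinases and RAS, had the second largest fall. Its counts were 2297, 2186, 2074 and 2147 in WT and 223, 220, 242 and 351 in EXT1-/-. The group ranges were far apart, with EXT1-/- replicate 4 again the highest of its group. The log2 fold change was -3.09 ± 0.14 (adjusted p 1.55e-06, limma), and the EXT1-/- mean was 11.9% of WT. SPRY2 (ENSG00000136158, chromosome 13, 80335976 to 80340951, minus strand), the Sprouty protein that also binds the ubiquitin ligase CBL, was at 1515, 1793, 1819 and 1928 in WT and 597, 684, 731 and 670 in EXT1-/-. It fell by 1.39 ± 0.09 on the log2 scale (adjusted p 9.80e-06, limma), leaving 38.0% of the WT mean. SPRY1 (ENSG00000164056, chromosome 4, 123396795 to 123403760, plus strand), known for restraining the receptor RET in kidney development, was at 759, 759, 788 and 681 in WT and 379, 316, 325 and 315 in EXT1-/-. Its log2 fold change was -1.16 ± 0.08 (adjusted p 1.46e-05, limma), with 44.7% of the WT mean left. For SPRY2 and SPRY1 the groups did not overlap, and the fold changes within the low set were -1.38 and -1.21.

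IL17RD (ENSG00000144730, chromosome 3, 57089982 to 57170306, minus strand) encodes Sef, a membrane protein that binds FGF receptors and also holds active MEK and ERK in the cytoplasm. It had the highest counts of the 10 genes, at 7832, 10172, 10228 and 11557 in WT and 2825, 3824, 4081 and 3721 in EXT1-/-. Replicate 1 of each group, both of the high set, was the lowest of its group, and the groups did not overlap. The log2 fold change was -1.46 ± 0.14 (adjusted p 9.42e-05, limma), with -1.43 within the low and -1.27 within the high set. It was -1.37 in a fit with the library set as a term.

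With all 8 libraries the 3 SPRED genes had the smallest log2 fold changes of the members, but SPRED3 was within its SE of SPRY1 and fell further than it without EXT1-/- replicate 4 (-1.23 against -1.14). SPRED1 (ENSG00000166068, chromosome 15, 38252326 to 38357249, plus strand), whose loss in people causes Legius syndrome, was at 1851, 2767, 2566 and 2686 in WT and 1159, 1741, 1613 and 1377 in EXT1-/-. The lowest WT value, in replicate 1, was only just above the highest EXT1-/- value. The log2 fold change was -0.74 ± 0.16 (adjusted p 0.00753, limma), with -0.67 within the low and -0.55 within the high set. Fitted with the library set as a term, the fall of SPRED1 was smaller, at -0.63. SPRED3 (ENSG00000188766, chromosome 19, 38388421 to 38399587, plus strand), a family member that lacks the KIT-binding activity of the others, was low, at 276, 154, 128 and 126 in WT and 72, 66, 68 and 120 in EXT1-/-. WT replicate 1 and EXT1-/- replicate 4, both of the high set, were the highest of their groups. The groups did not overlap, but only narrowly, and the log2 fold change was -1.03 ± 0.29 (adjusted p 0.0242, limma). That call was lost without WT replicate 2 (adjusted p 0.0550), EXT1-/- replicate 1 (0.0613), replicate 2 (0.0600) or replicate 3 (0.0561). The log2 fold change of SPRED3 was -0.77 without WT replicate 1, still called at an adjusted p of 0.0267, and adjusted p over its alternatives ran from 0.000518 to 0.0613.

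SPRED2 (ENSG00000198369, chromosome 2, 65310851 to 65432637, minus strand), which like SPRED1 brings neurofibromin to RAS, was at 1695, 1265, 1307 and 1202 in WT and 1125, 966, 949 and 1223 in EXT1-/-. The groups overlapped, through EXT1-/- replicate 4. Its log2 fold change of -0.35 ± 0.13 missed the threshold (adjusted p 0.0598, limma). High-set libraries were the higher ones in both groups, and SPRED2 had log2 fold changes of -0.39 in the low set alone (adjusted p 0.00111) and -0.44 with the set as a term (adjusted p 8.05e-05). It also passed without EXT1-/- replicate 4 (adjusted p 0.0418), with limma-voom (0.0401) and with values scaled to the table total (0.0369), and over all alternatives adjusted p reached 0.130. Member by member, an exact permutation test (two-sided, 70 divisions) gave p = 0.0571 for SPRED2 and p = 0.0286, the lowest value possible with 4 libraries against 4, for each of the 9 others.

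Between the library sets the members did not move in 1 direction. WT replicate 1 minus the mean of the other 3 WT libraries, as a log2 difference, was -0.53 for SPRED1, -0.45 for DUSP5, -0.44 for IL17RD and -0.28 for SPRY2, but 1.02 for SPRED3 and 0.43 for SPRED2. EXT1-/- replicate 4 held the highest knockout value in 5 of the 10 members (DUSP4, DUSP6, SPRY4, SPRED2 and SPRED3), and in 32.7% of all genes. EXT1-/- replicate 1 held the lowest in 5 members, ties with a later library included, and in 22.1% of all genes. Replicate 4 also had the highest value of its group for all 4 mesendoderm markers (TBXT 4932, others 3002 to 3328) and all 4 measured neural and border markers (MSX1 10856, others 3974 to 5589). The part of these markers in the members' values was not tested.

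Levels can be compared between genes only per length, here as normalised counts per kb of the longest coding transcript in GENCODE 29. In WT the order was IL17RD (1141 ± 178, SD, n = 4), SPRY2 (651 ± 64.9), SPRY4 (441 ± 18.8), SPRED2 (334 ± 54.4), SPRED1 (317 ± 53.9), SPRY1 (286 ± 17.6), DUSP5 (152 ± 23.8), DUSP6 (149 ± 9.22), DUSP4 (109 ± 4.64) and SPRED3 (35.8 ± 14.9). The ranges of SPRED2 and SPRED1, of SPRED1 and SPRY1, and of DUSP5 and DUSP6 overlapped, and those of the other neighbours in this order did not. In EXT1-/- libraries the order of the levels per kb was IL17RD (414 ± 62.7), SPRED2 (260 ± 32.1), SPRY2 (248 ± 20.5), SPRED1 (189 ± 33.1), SPRY1 (128 ± 11.7), SPRY4 (52.5 ± 12.6), DUSP5 (45.8 ± 3.79), DUSP4 (22.4 ± 7.02), SPRED3 (17.1 ± 5.40) and DUSP6 (10.5 ± 1.82). There SPRED2 and SPRY2, SPRY2 and SPRED1, SPRY4 and DUSP5, and DUSP4 and SPRED3 overlapped. SPRY4 thus stood at place 3 of 10 in WT and 6 in EXT1-/-, and DUSP6 at 8 and 10. With all exons of a gene as its length SPRED1 and SPRED2 changed places in WT, and SPRED2 and SPRY2, and SPRY4 and DUSP5, changed places in EXT1-/-, all pairs with overlapping ranges.

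**Figure D2:**
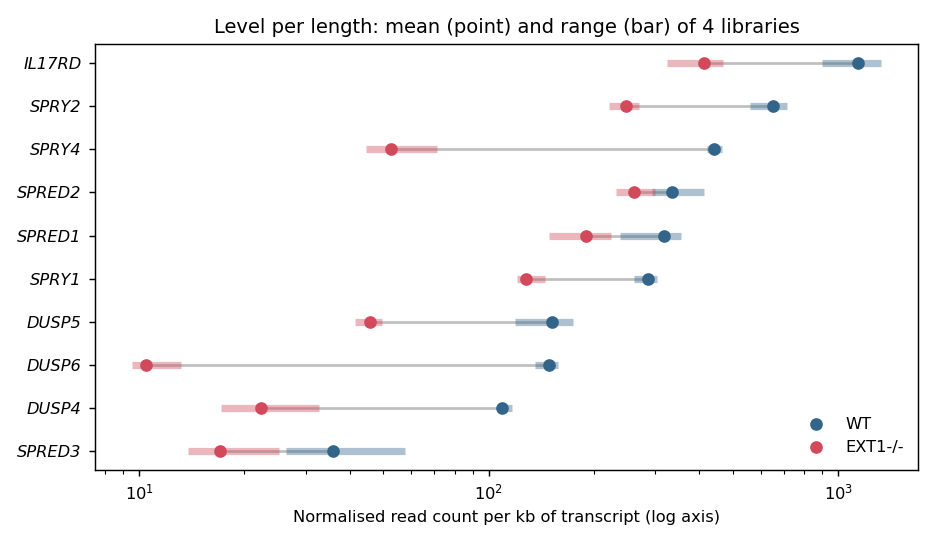
Normalised read count per kb of the longest coding transcript (log axis) for each member, ordered by the WT level, with points for the mean and thick bars for the range of 4 libraries in WT (blue) and EXT1-/- (red). The longest distances between the groups are those of DUSP6 and SPRY4, and the bars of SPRED2 overlap.

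Whether relatives within a family differed in response was tested on the log2 ratio of 2 members within each library, which no scaling between libraries can change beyond the pseudocount. The 9 possible pairs within the DUSP, Sprouty and SPRED families were compared by a two-sided exact permutation test. In 4 pairs the groups did not overlap, and for each the exact p was 0.0286, the lowest possible here, or 0.0643 after adjustment over the 9 pairs. At a threshold of 0.05 therefore 0 pairs passed with adjustment and 4 did without it. Without EXT1-/- replicate 4, 6 pairs passed (adjusted p 0.0429 each, exact test): these 4, DUSP4 to DUSP5 and SPRED2 to SPRED3. With any other library left out 0 pairs passed. Because 0.0286 is also the lowest exact p there, at least 6 of the 9 pairs must be separated before any can pass. A count of 0 therefore does not say how many pairs were separated, and no count says how large a difference was. The difference of DUSP4 to DUSP6 was smaller without that library, at 1.41. The log2 ratio of DUSP5 to DUSP6 was -0.76 ± 0.16 in WT and 1.34 ± 0.33 in EXT1-/- libraries (SD, n = 4), a difference of 2.10 ± 0.18 (SE). The ratio of DUSP4 to DUSP6 went from -0.11 ± 0.10 to 1.38 ± 0.20, a difference of 1.49 ± 0.11. Against SPRY4, the log2 ratio of SPRY1 differed by 1.93 ± 0.20 and that of SPRY2 by 1.70 ± 0.19 between the groups. DUSP6 and SPRY4 thus had the lower share of their families in the knockout libraries in all 4 of these pairs.

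The other 5 pairs overlapped. The difference in log2 ratio was -0.62 ± 0.29 (SE) for DUSP4 to DUSP5 (adjusted p 0.171 by the exact test), 0.23 ± 0.16 for SPRY1 to SPRY2 (0.257), -0.39 ± 0.32 for SPRED1 to SPRED2 (0.257), 0.28 ± 0.48 for SPRED1 to SPRED3 (0.629) and 0.67 ± 0.21 for SPRED2 to SPRED3 (0.103). Without EXT1-/- replicate 4 the difference was -0.86 for DUSP4 to DUSP5 and 0.80 for SPRED2 to SPRED3, the 2 pairs of these that then passed. The ratio of SPRED1 to SPRED3 had the widest spread, with an SD of 0.78 in WT, and its difference was -0.11 without WT replicate 1. An adjusted p above the threshold does not show equal responses.

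**Figure D3:**
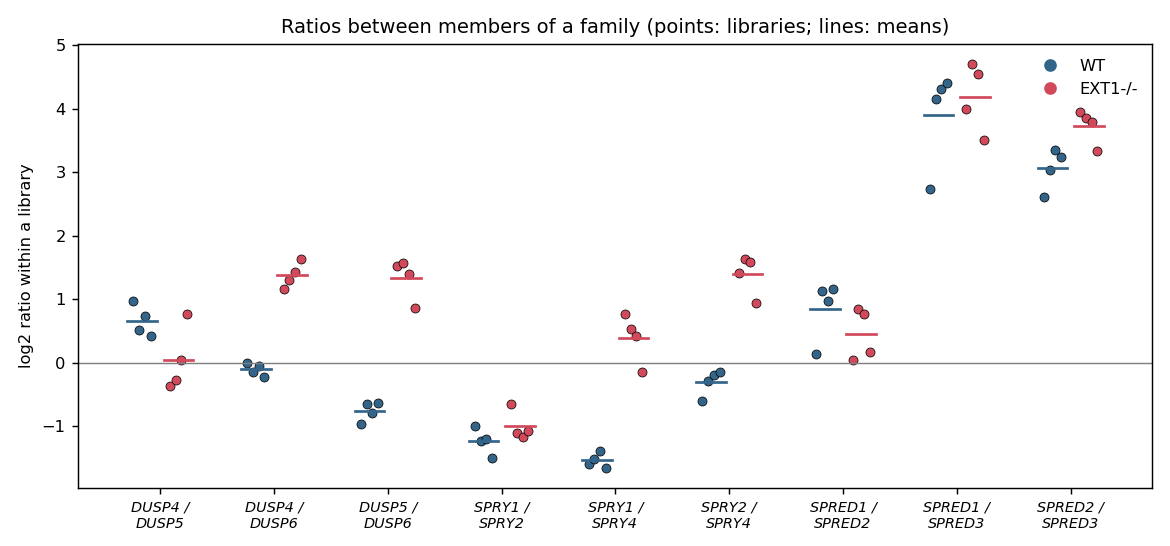
Log2 ratio of normalised counts of 2 members of a family within each library, for 9 pairs, with points for the 4 WT (blue) and 4 EXT1-/- (red) libraries and lines for the means. The pairs with DUSP6 or SPRY4 as the second gene shift upward in EXT1-/-, by 1.49 to 2.10, with no overlap.

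Related genes were read from lists of the pathway. Outside these 10 genes the MAPK pathway activity signature, a published set of ERK-driven transcripts, has 6 genes. Of these, 5 were lower and 1 higher, with a median log2 fold change of -1.34, beside 16.8% of all genes lower and 15.2% higher. ETV5 and ETV4, ETS factors induced by FGF, and PHLDA1, an early response gene, had the smallest adjusted p among the lower ones. ETV5 was at 1457 ± 126 normalised counts in WT and 124.8 ± 27.1 in EXT1-/- (SD, n = 4), and PHLDA1 at 1470 ± 179 and 338.2 ± 17.6. CCND1, which encodes cyclin D1 and is also a target of β-catenin, was the higher one, at 8645 ± 303 and 13880 ± 772.

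Of 6 measured MAP kinase phosphatase genes besides the members (DUSP9 is not in the table), 3 were lower, none was higher and 3 were not called. The median was -0.38, and of all genes 16.8% were lower and 15.2% higher. Restricted to the low set, 5 of the 6 were lower, where 24.1% of all genes were. DUSP2, an inducible nuclear phosphatase, fell from 44.0 ± 13.8 to 14.8 ± 3.50 normalised counts (adjusted p 0.00662, limma). DUSP2 reached the level at which genes appear to enter the table, about 0.977 CPM in the second-highest library, only in WT libraries. Its EXT1-/- values were 11 to 19, and a gene so low in both groups would be absent. The fall of DUSP2 is thus partly fixed by this selection. Its log2 fold change was -1.73 within the low and -0.70 within the high set. DUSP10 and DUSP16, which act mainly on the stress kinases JNK and p38, fell by 0.49 ± 0.06 and 0.22 ± 0.06 on the log2 scale. The call of DUSP16 was lost without WT replicate 2 or without EXT1-/- replicate 2, 3 or 4 (adjusted p up to 0.0682).

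The cascade from the receptor adaptors to ERK held 20 measured genes, of which 2 were higher, 2 lower and 16 not called. Of all genes, 15.2% were higher and 16.8% lower. The cascade had a median of 0.04 and a range from -0.60 to 0.54. In the low set alone 5 cascade genes were called higher and 2 lower (median 0.04), beside 20.9% and 24.1% of all genes. SHC1, an adaptor of activated receptors, went from 6164 ± 342 to 4292 ± 212 normalised counts, and KSR1, a scaffold for RAF, MEK and ERK, from 469.0 ± 51.2 to 310.5 ± 41.7. HRAS rose by 0.30 ± 0.10 (adjusted p 0.0478, limma), a call lost in 10 of 18 alternatives (adjusted p up to 0.104), among them without EXT1-/- replicate 1, 2, 3 or 4 and without WT replicate 2 or 4. These are transcript levels, not kinase activity.

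Of 14 other measured inhibitors of the receptor and RAS steps, 2 were higher, 2 lower and 10 not called, with a median of 0.07, and these shares are near those of all genes (15.2% higher and 16.8% lower). In the low set alone the counts were 5 higher and 3 lower, beside 20.9% and 24.1% of all genes. SPRY3, the remaining Sprouty gene, was lower, at 97.2 ± 6.99 and 58.0 ± 5.10 normalised counts (log2 fold change -0.74 ± 0.12), as was PEBP1, an inhibitor of RAF, by -0.23 ± 0.05. The RAS GTPase activators DAB2IP and RASA1 were higher by 0.53 ± 0.14 and 0.17 ± 0.05. The call of DAB2IP was lost without WT replicate 2, 3 or 4 or EXT1-/- replicate 1 or 4 (adjusted p up to 0.0599). That of RASA1 was lost in 7 alternatives, among them the replicate block and each fit without WT replicate 2 or 3 or EXT1-/- replicate 2 or 3 (up to 0.0770). NF1, the neurofibromin gene through which SPRED proteins act, was not called (log2 fold change -0.17 ± 0.06, adjusted p 0.0613, limma).

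**Figure D4:**
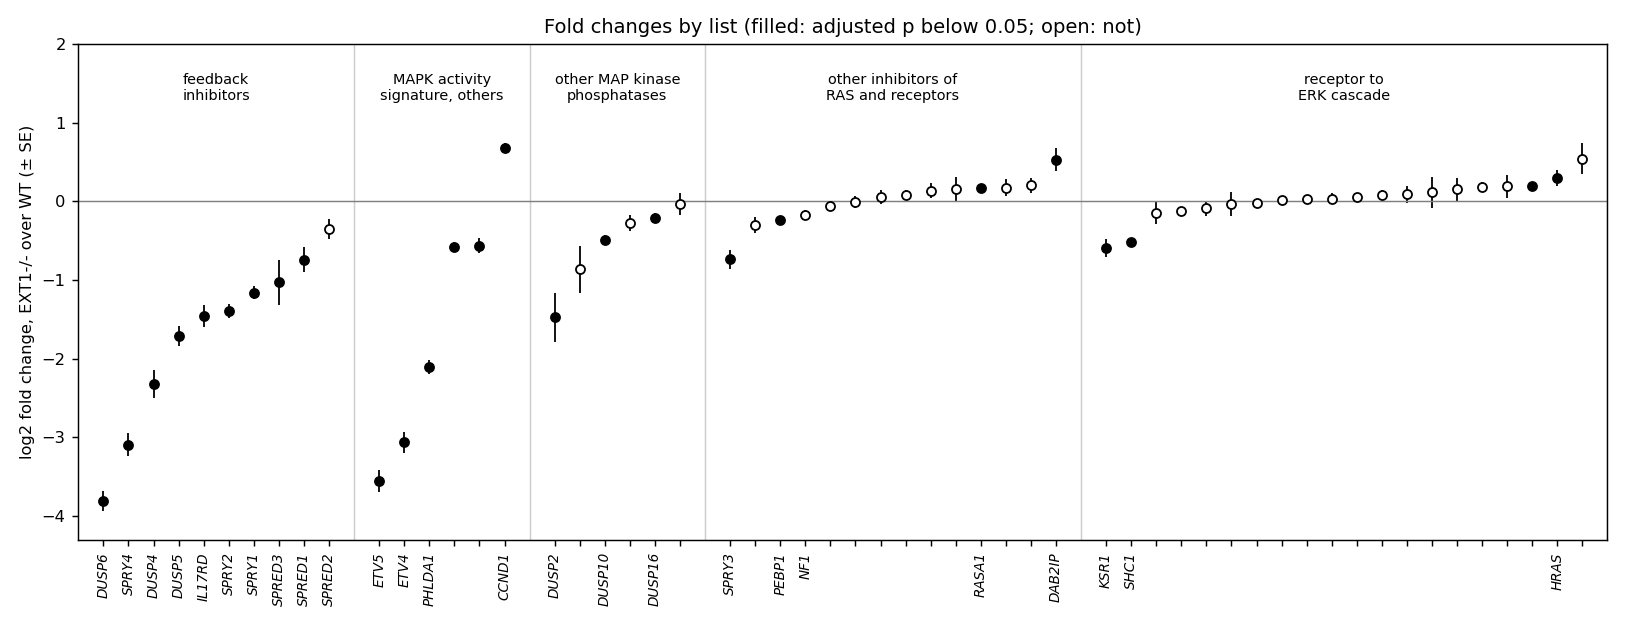
Log2 fold change of EXT1-/- over WT with its SE (vertical axis) for each measured gene of 5 lists, with a name under those the text names, filled where the adjusted p was below 0.05 (limma, all 8 libraries) and open where not. The 10 inhibitors range from -3.81 to -0.35, and the 20 cascade genes from -0.60 to 0.54.

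Genes whose profile over the 8 libraries was most like that of DUSP6 were found by the Euclidean distance between log2 values, each gene centred on its own mean. Leaving out clone, LOC and LINC names, which removed the gene at rank 3, the nearest were ETV5 (distance 0.45), S1PR1 (0.55), a receptor for sphingosine-1-phosphate, APLNR (0.66), the apelin receptor, AK4 (0.67), a mitochondrial adenylate kinase, and PCDH10 (0.80), a protocadherin. S1PR1 was at 516 to 611 in WT and 35 to 62 in EXT1-/- libraries, and its log2 fold change was -3.58 ± 0.16. AK4 was at 5802 to 7073 and 414 to 541, with EXT1-/- replicate 4 the lowest knockout library for AK4 and the highest knockout library for DUSP6. SPRY4 was the 11th nearest gene, clone names included, DUSP4 the 84th and DUSP5 the 214th, while SPRED2 was the 2498th. Over 8 libraries in 2 groups this distance reflects mainly the size of the difference between the groups.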

How the data were processed

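Total RNA libraries of 4 WT and 4 EXT1-/- samples were grouped by their titles. Per the submitters' processing notes the authors used STAR, RSEM and edgeR with GRCh38.p10, with no versions given. The authors deposited 1 table of both groups, with 0 columns of other samples. The authors deposited, for each library, a normalised signal in whole numbers, not raw counts, after alignment and counting. Evidence for the scaling is that the median log2 ratio of a library to the mean library was at most 0.0145 in size. A CPM is 38.9 of these normalised read counts. The deposited table also gives the authors' log2 fold change, log2 CPM, likelihood ratio score, p-value and FDR. No gene had a second-highest value under 0.977 CPM, so the table appears to hold only genes whose second-highest library reached about that level. The third-highest value was as low as 0, so a gene of the table may be absent from most libraries.

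Because the values are normalised, the test was not a count model but limma 3.58.1 with an intensity trend (R 4.3.3) on log2(value + 1), genotype as the only term, fitted to 15811 genes with Benjamini-Hochberg adjustment and a threshold of 0.05. Fold changes are on that log2 scale and understate those of low genes. The fit was tested on simulated data. Library sets were split at the largest gap in the mitochondrial share. GENCODE 29 gave coordinates and lengths and matched 15777 genes; promoters came from RefSeq. Python 3.11.15, pandas 2.3.3, numpy 2.4.6 and matplotlib 3.10.9 were used. Named were EXT1, the members, the markers, up to 3 called genes per direction and pathway list with the smallest adjusted p, and the 5 genes nearest DUSP6 whose symbols are not clone, LOC or LINC names; NF1 was named after its values were seen. Some genes of the cascade list are counted but not otherwise reported here. Members and lists were chosen with earlier results of these data known. Alternatives were other pseudocounts, filters, scalings and tests, a replicate block, the library set as a term, the low set alone, and each library left out; the high set alone was added after seeing the data.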

Additional observations from a re-analysis of the deposited data

Results flagged for a closer look

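In groups of 4 libraries, a value was singled out where its gap to the nearest other value, as a share of the group's whole range, was above Dixon's 95% critical value. This was run on 32 groups (EXT1, the 10 members and the 5 genes nearest DUSP6, in each genotype) and found 7 values, where chance gives about 1 in 20 groups. The nearest genes were chosen for their likeness to DUSP6 in these libraries, so their values are no separate evidence, and 6 of the 7 values came from the 22 groups of the other genes. EXT1-/- replicate 4 held 4 of them, each the highest of its group: DUSP6 at 58 (the others were all at 42), SPRY4 at 351 (others 220 to 242), SPRED3 at 120 (others 66 to 72) and PCDH10 at 405 (others 261 to 272). EXT1-/- replicate 1 had SPRY1 at 379 (others 315 to 325). WT replicate 3 had DUSP4 at 644 (others 589 to 596), and WT replicate 1 had EXT1 at 1776 (others 1464 to 1508). The genes of a library are not independent, and the cause was not tested.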

How the results depend on the processing

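Over 18 alternatives, 179 values of the 10 members were computed, since SPRED3 was removed by the filter of 5 CPM in 4 libraries. All 179 had the direction found with all 8 libraries and 170 the same call; the other 9 are the SPRED2 and SPRED3 values given above. The number of members called lower, 9, was 8 with that filter, 9 with the replicate block, 10 within the low set or in a fit with a set term, and 8 to 10 with a library left out. The number of all genes called, 5063, was 8195 with a set term, 7111 for low-set libraries alone, 4934 with the replicate block and 3721 (without WT replicate 2) to 6041 (without WT replicate 1) with a library left out; the cause was not tested. Correlations of deviations between same-numbered libraries were 0.71, 0.29, 0.24 and -0.51 for replicates 1 to 4, so the numbers were not taken to pair the libraries, and the block ended the call of RASA1 among the genes named. Within the high set, with no test, the log2 fold change was -1.40 for DUSP5, -3.57 for DUSP6 and -1.56 for SPRED3, further from the value of all libraries than 1 SD. Ratio tests passed for 0 pairs at all pseudocounts and for 0 to 6 pairs with a library left out, 6 only without EXT1-/- replicate 4; fewer than 6 separated pairs cannot pass, so these counts say nothing of stability. The log2 ratio difference of SPRED1 to SPRED3 changed sign without WT replicate 1, and ran from -0.11 to 0.51 with a library left out. In the low set, with 3 libraries against 2, the exact test cannot reach 0.05, so pairs were not counted there. Depth of the raw reads is not known from these values.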
